A study of Mus musculus with 24 samples.

Results

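Whole blood of wild-type mice 24 h after 6 Gy of X rays was compared with whole blood of sham-irradiated wild-type mice. The comparison rests on 10 of the 24 arrays of the series, 5 labelled wild type at 6 Gy and 5 labelled wild type at 0 Gy, chosen by title alone, and each array holds the blood of 1 mouse per the series design. All mice were male and of strain 129S/J, and the other 14 arrays are 4 wild-type arrays at 8.8 Gy and 10 arrays of mice lacking Parp1. By the series design 8.8 Gy is the LD50/30 of wild type, the dose lethal to 50% within 30 days, while 6 Gy is the LD50/30 of the Parp1 mutant, so that 6 Gy stands below that dose in the wild-type mice described here. Blood was drawn from the heart at death into an RNA-stabilising lysis solution, and RNA was purified on columns with DNase, depleted of globin messenger RNA, and labelled with the dye Cy3 from 0.2 µg for 1-colour Agilent mouse expression arrays.

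Ionising radiation breaks DNA. In nucleated blood cells such breaks activate the transcription factor p53, which switches on genes that halt the cell cycle, feed back on p53 or start apoptosis. Lymphocytes are among the most radiosensitive cells of the body, B cells more so than T cells, whereas mature neutrophils and platelets, which no longer divide, are lost later as the irradiated marrow fails to replace them. Reticulocytes are the young red cells that still hold RNA, so that most of the erythroid RNA in blood comes from the marrow output of the preceding days. Type I interferon acts through STAT and IRF factors at the interferon-stimulated response element in the promoters of antiviral genes.

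Levels are log2 signals relative to the 75th percentile of the same array, and a difference is the mean at 6 Gy minus the mean at 0 Gy with the moderated standard error of limma. Between 42.8% and 57.8% of the spots of an array were well above background, 49.7% ± 5.48 (SD, n = 5) at 6 Gy and 49.4% ± 6.54 (n = 5) at 0 Gy. An exact permutation test found no difference in that share (two-sided p = 0.921, adjusted over 3 measures 0.921). Probes that were well above background on none of the 24 arrays (9545) had a mean level of -3.92 ± 0.328 at 6 Gy and -4.89 ± 0.660 at 0 Gy, 0.971 higher after irradiation (exact permutation p = 0.00794, the smallest that 5 against 5 arrays allow, adjusted p = 0.0238). The dim end of the scale thus stood higher on irradiated arrays. All 5 irradiated arrays were scanned on one day and all 5 sham arrays on another, on separate slides, so scan day and irradiation cannot be told apart within these 10 arrays. Blood markers were present in both groups. The α-globin gene Hba-a1 was at 12.01 ± 0.78 in sham and 12.12 ± 0.25 in irradiated blood (mean ± SD) even after globin depletion, the neutrophil gene S100a8 at 6.01 ± 0.86 and 7.23 ± 0.49, and the platelet chemokine gene Pf4 at 8.55 ± 0.70 and 9.38 ± 0.70.

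Transcripts of other organs were present as well. The mean level of 14 tested hepatocyte markers ran from -0.99 to 7.47 over the sham arrays and from 0.57 to 7.13 over the irradiated arrays. It was high on sham replicates 1, 3 and 5 and on irradiated replicates 4 and 5, and none of the 14 passed the test between the groups. Albumin RNA was well above background on 3 of 5 sham and on 5 of 5 irradiated arrays. Heart muscle markers were highest on irradiated replicate 1 (mean of 6 genes 2.89) and on sham replicate 1 (0.20). Skeletal muscle markers (mean of 4 genes) ran from -2.0 to -0.91 in sham and from -0.75 to 0.14 in irradiated blood, and the 3 lung markers from -1.43 to -0.67 and from -0.48 to 0.06. Counts were therefore also made on the 5 arrays with a hepatocyte mean under 2 (sham replicates 2 and 4, irradiated replicates 1, 2 and 3), an alternative chosen after seeing the data.

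Of 15265 genes tested, 2485 were higher and 1713 lower in irradiated blood at a limma adjusted p under 0.05, which is 16.3% and 11.2% of the genes, and their median difference was 0.04. Groups of 5 did not overlap for 9.72% of genes in the upward and 9.39% in the downward direction. Counts of list members given below are to be read beside these shares. The direction of the balance depends on the scale. Centring on the median called 851 genes higher and 6882 lower, counts to set beside those of list members under that setting. Calls on the higher side were 59.2% of all calls here, 11% after centring on the median, which lowered every difference by 0.78, and 40.9% after normexp background correction with quantile normalisation. Medians of several lists turned negative under median centring, to -0.56 for p53 repair targets, -0.53 for the Bcl2 family and for interferon sensors, -0.66 for the PARP family, -0.56 for MHC class I, -0.54 for natural killer genes, -0.55 for globin and erythroid regulators, -0.58 for basophils and eosinophils, -0.63 for NF-κB genes and -0.01 for Toll-like receptor and inflammasome genes. Of the higher calls 43.0% were detected on all 10 arrays, against 74.0% of the lower calls and 73.4% of all genes tested. Several lists below hold higher genes that were detected on fewer than 4 sham arrays. Detected on at least 4 were 2 of 3 higher p53 repair targets and 1 of 2 higher replication genes. The same held for 3 of 5 surface and 3 of 4 granule genes of neutrophils and 6 of 7 Fc and phagocytic receptor genes. Among the 5 arrays low in hepatocyte RNA, 2423 genes were higher and 1936 lower.

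**Figure D1:**
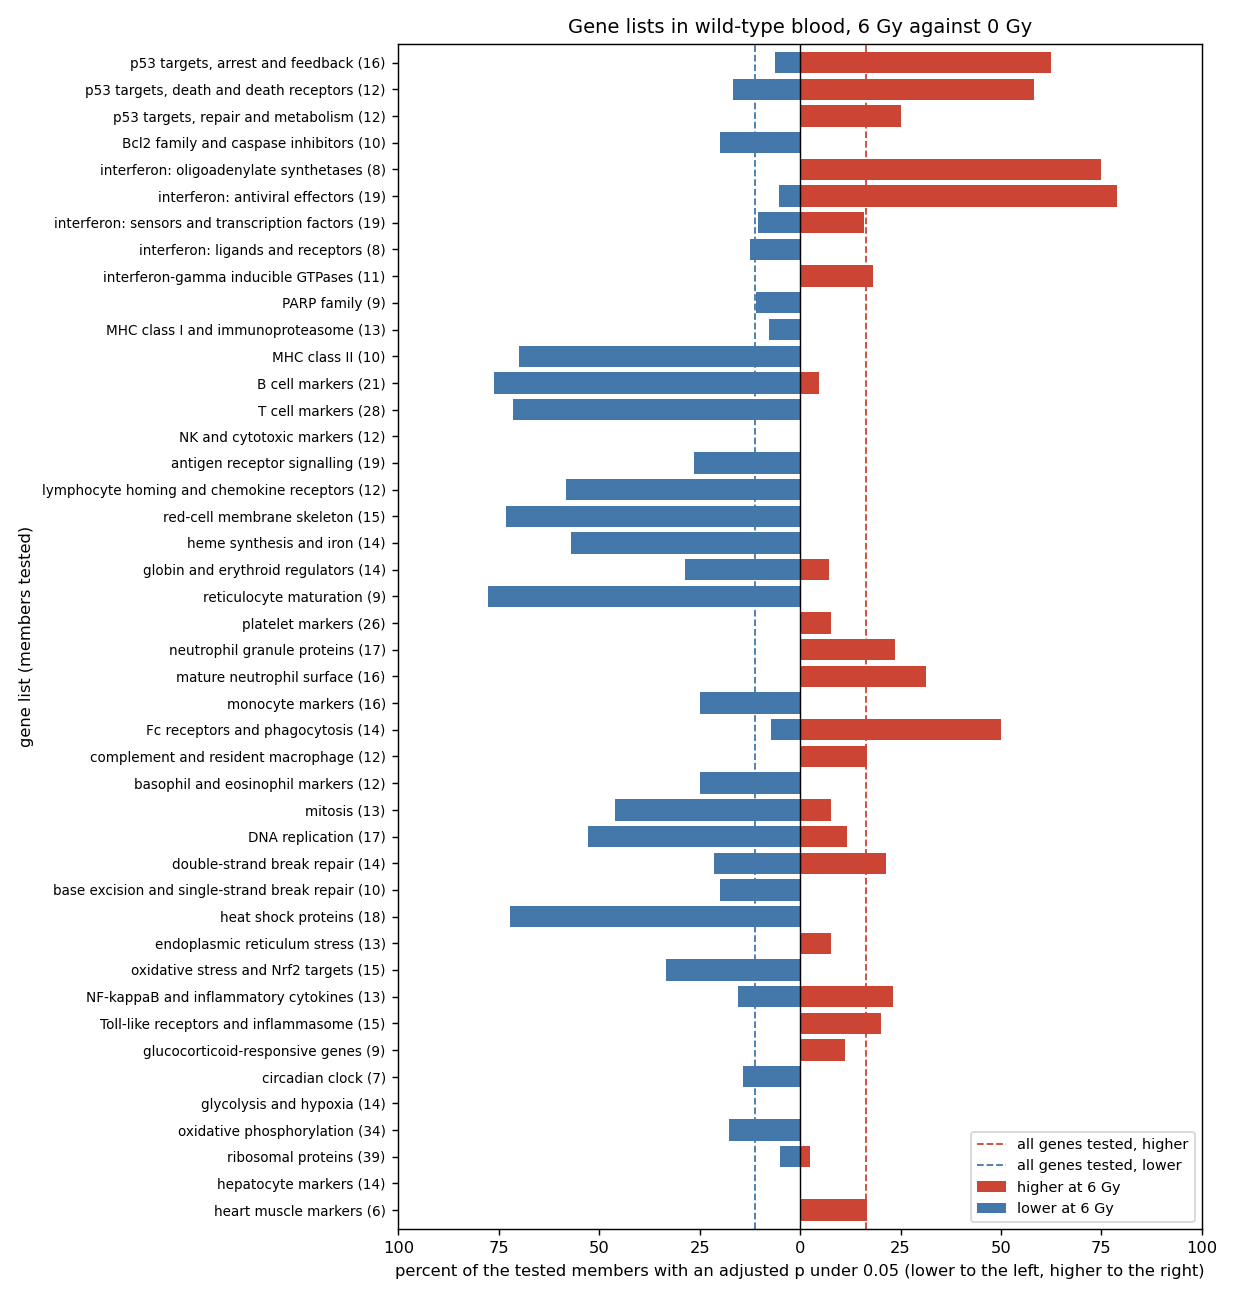
Horizontal bars give the percent of the tested members of each gene list with an adjusted p under 0.05, lower at 6 Gy to the left and higher to the right, for the lists with at least 6 members tested, with the number tested in brackets and the shares over all genes as dashed lines (16.3% higher, 11.2% lower). The longest bars to the right are those of the antiviral effectors (15 of 19) and oligoadenylate synthetases (6 of 8), and the longest to the left are those of the reticulocyte (7 of 9) and B cell lists (16 of 21).

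p53 targets that stop the cell cycle or restrain p53 formed one of the clearest groups. Of 16 tested members 10 rose and 1 fell, with a median difference of 1.42, against 16.3% and 11.2% of all genes and a median of 0.04. Under median centring 8 were higher and 2 lower, median 0.64. Normexp with quantile normalisation gave 10 and 1, median 1.02. Cdkn1a, the gene of the kinase inhibitor p21, has its probe at mm9 chromosome 17, 29237377 to 29237436. Cdkn1a was at -2.13, -1.90, -1.74, -3.05 and -0.71 in sham replicates 1 to 5 and at 2.52, 2.14, 1.97, 1.95 and 2.73 in irradiated replicates 1 to 5. The groups did not overlap, and sham replicate 4 was not well above background. Cdkn1a rose by 4.17 ± 0.37 (limma adjusted p = 0.000208).

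Gtse1, a microtubule-associated regulator of p53, and Psrc1, a spindle protein, were not well above background on any sham array. For such a gene only a bound is given, which sets the mean of the brighter group against a mean over the dim arrays. Each dim array enters with the lowest signal well above background, or the probe's own signal if higher. All bounds here and below hold only on the scale of the levels given. They were not recomputed under median centring, which lowered every difference by 0.78, so that bounds on rises would be smaller there. Gtse1 was at least 5.48-fold higher (limma adjusted p = 5.6e-06) and Psrc1 at least 14.1-fold higher (limma adjusted p = 0.000208). Both passed the filter through the irradiated arrays alone, and their p-values set signal against background. Of the 10 higher arrest genes 7 were detected on at least 4 sham arrays. Plk2, a stress-induced polo-like kinase, was detected on 1 of 5 sham arrays, so that the size of its difference, 2.94 ± 0.27 (limma adjusted p = 0.000208), depends on the dim end of the scale. Phlda3, an inhibitor of Akt, was at 0.81, 1.51, 1.36, 2.75 and 1.21 in sham and 4.29, 4.74, 4.50, 4.06 and 3.97 in irradiated blood, a rise of 2.79 ± 0.34 with no overlap.

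Ccng1 (cyclin G1) rose by 2.07 ± 0.26, Zmat3, an RNA-binding protein, by 2.07 ± 0.26, Sesn2, a stress-induced restrainer of mTORC1, by 1.51 ± 0.20 and Trp53inp1 by 1.33 ± 0.32. Mdm2, the ubiquitin ligase that degrades p53, rose by 1.20 ± 0.21 from a higher sham level. Mdm2 was at 2.20, 2.92, 2.59, 3.02 and 2.50 in sham replicates 1 to 5 and at 3.94, 3.88, 3.88, 4.03 and 3.48 in irradiated replicates 1 to 5. Every irradiated array lay above every sham array, the lowest being replicate 5. Sesn1, the paralogue of Sesn2, was the member that fell (-0.77 ± 0.20, adjusted p = 0.0179). Trp53 itself, at -1.70 ± 0.26 in sham and -1.97 ± 0.47 in irradiated blood, did not pass (difference -0.27 ± 0.25, adjusted p = 0.452).

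**Figure D2:**
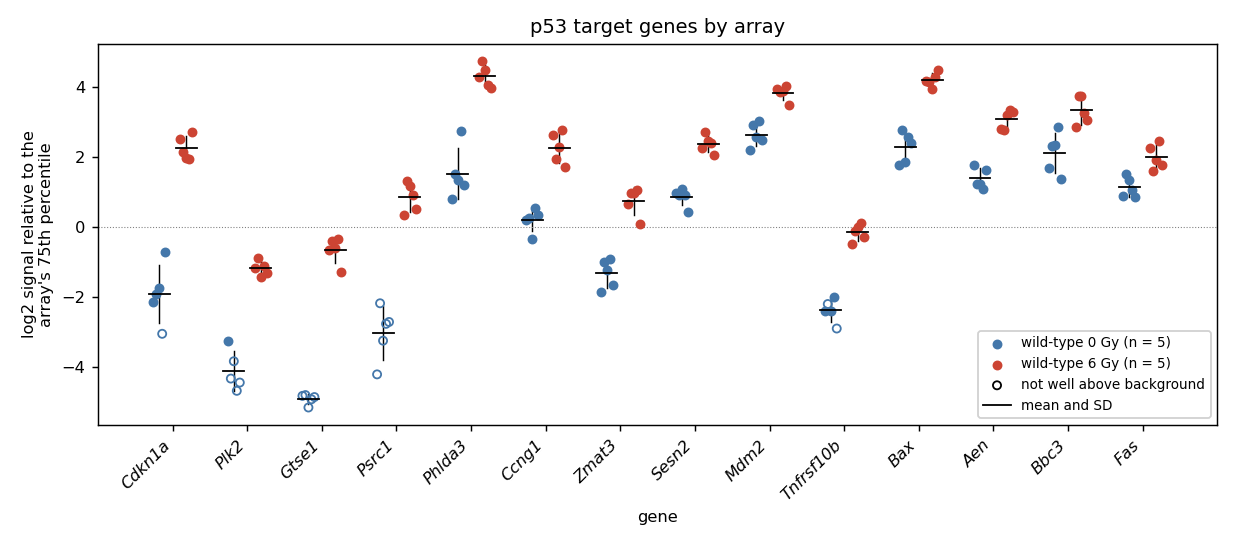
Log2 signal relative to the array's 75th percentile of 14 p53 target genes on the 5 sham (blue) and 5 irradiated (red) arrays, open where not well above background, with mean and SD. Cdkn1a lies between 1.95 and 2.73 on irradiated arrays and between -3.05 and -0.71 on sham arrays, and open points are found on sham arrays of Cdkn1a, Plk2, Gtse1, Psrc1 and Tnfrsf10b.

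Most death genes downstream of p53 were higher too. Of 12 tested, 7 rose and 2 fell, median 0.98, against 16.3% and 11.2% of all genes. Under median centring 4 were higher and 2 lower, median 0.20. Of the 7 higher genes 5 were detected on at least 4 sham arrays, and the sizes for the others depend on the dim end of the scale. Tnfrsf10b, the mouse receptor of the death ligand TRAIL, rose by 2.23 ± 0.22 (adjusted p = 0.000289). Bax, the pore former of the outer mitochondrial membrane, was at 1.79, 2.78, 1.87, 2.58 and 2.39 in sham and 4.18, 4.15, 3.94, 4.30 and 4.50 in irradiated replicates 1 to 5. That is a rise of 1.93 ± 0.24 with no overlap (adjusted p = 0.000703). Lrdd, now named Pidd1 and a scaffold for caspase-2, rose by 1.83 ± 0.21, and Aen, an apoptosis nuclease, by 1.69 ± 0.22. Smaller rises were those of Bbc3 (Puma, 1.22 ± 0.31), Dram1 (1.10 ± 0.25) and the death receptor gene Fas (0.87 ± 0.23). Trp53i11 (-1.25 ± 0.19) and Trp53i13 (-0.86 ± 0.28) fell. The mean of the arrest list ran from -0.44 to -0.30 over sham arrays and from 1.06 to 1.45 over irradiated arrays, with an SD of 0.14 between the irradiated mice.

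Fewer of the p53 targets that act in DNA repair and metabolism passed, 3 of 12 higher and 0 lower, median 0.22. They were Polk, a translesion DNA polymerase (1.75 ± 0.32), Ercc5, the nuclease XPG (1.08 ± 0.24), and Ddit4, an mTORC1 inhibitor (1.10 ± 0.33). Ddb2, a damage sensor of nucleotide excision repair, did not pass (-0.36 ± 0.22, adjusted p = 0.238). Among 10 tested Bcl2 family members and caspase inhibitors 0 rose and 2 fell, median 0.25. These were Bcl2l1, which encodes the survival protein Bcl-xL (-2.29 ± 0.33, adjusted p = 0.00127), and Bmf, a pro-apoptotic member (-1.01 ± 0.27). Bcl2l1 is also abundant in erythroid cells, and its sham level was 9.28 ± 0.60.

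Members of the interferon lists made up 5 of the 10 largest rises by the naming rule. Oligoadenylate synthetases sense double-stranded RNA and make a second messenger of antiviral defence. Of 8 tested members of that list 6 rose and 0 fell, with a median difference of 2.72, and 4 of the 6 were detected on at least 4 sham arrays. Under median centring 5 were higher and 2 lower, median 1.94. Normexp with quantile normalisation gave 5 and 0, median 1.25. Oasl2 was at -3.68, -4.25, -4.30, -4.27 and -4.44 in sham replicates 1 to 5 and at 2.53, -1.02, -1.27, 1.83 and 2.31 in irradiated replicates 1 to 5. The groups did not overlap, with a difference of 5.06 ± 0.72 (adjusted p = 0.00124). Only sham replicate 1 was well above background, the other sham levels lie at the dim end, and the size of the difference depends on that end of the scale. Oas2 rose by 4.52 ± 0.46, Oas1a by 3.92 ± 0.72, Oasl1 by 3.67 ± 0.39, Oas3 by 1.77 ± 0.36 and Oas1c by 0.93 ± 0.29.

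Antiviral effectors gave the largest share of calls of any list with 10 or more members tested. Of 19 tested 15 rose and 1 fell, median 2.38, and 10 of the 15 were detected on at least 4 sham arrays. Under median centring 11 were higher and 2 lower, median 1.60. Normexp with quantile normalisation gave 14 and 1, median 1.38. Mx1, an antiviral GTPase, was at least 9.89-fold higher (limma adjusted p = 0.0004). Ifit3 was at -0.96, -1.50, -1.07, -1.04 and -2.63 in sham replicates 1 to 5 and at 4.12, 2.12, 1.09, 2.73 and 2.66 in irradiated replicates 1 to 5. Ifit3, which binds viral RNA together with Ifit1, rose by 3.98 ± 0.51 (adjusted p = 0.000772). I830012O16Rik, now Ifit3b and detected on 1 of 5 sham arrays, differed by 4.43 ± 0.48. Rtp4 rose by 3.72 ± 0.40, Mx2 by 2.94 ± 0.38, Usp18, which removes ISG15 from proteins, by 2.71 ± 0.34, and Ifit1 by 2.38 ± 0.41. Slfn4, a myeloid schlafen gene outside the list, rose by 3.91 ± 0.54.

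The list was not uniform. Isg15 (difference 0.32 ± 0.41, adjusted p = 0.587) and Ifit2 (0.65 ± 0.38, adjusted p = 0.214) did not pass. Rsad2, which encodes the antiviral enzyme viperin, went the other way. Rsad2 was at 6.63, 7.71, 7.16, 8.06 and 7.68 in sham replicates 1 to 5 and at 4.0, 5.28, 4.56, 5.18 and 4.34 in irradiated replicates 1 to 5. Every irradiated array lay below every sham array on its only probe (mm9 chromosome 12, position 27127859), and Rsad2 fell, with a difference of -2.78 ± 0.33 (adjusted p = 0.000605).

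**Figure D3:**
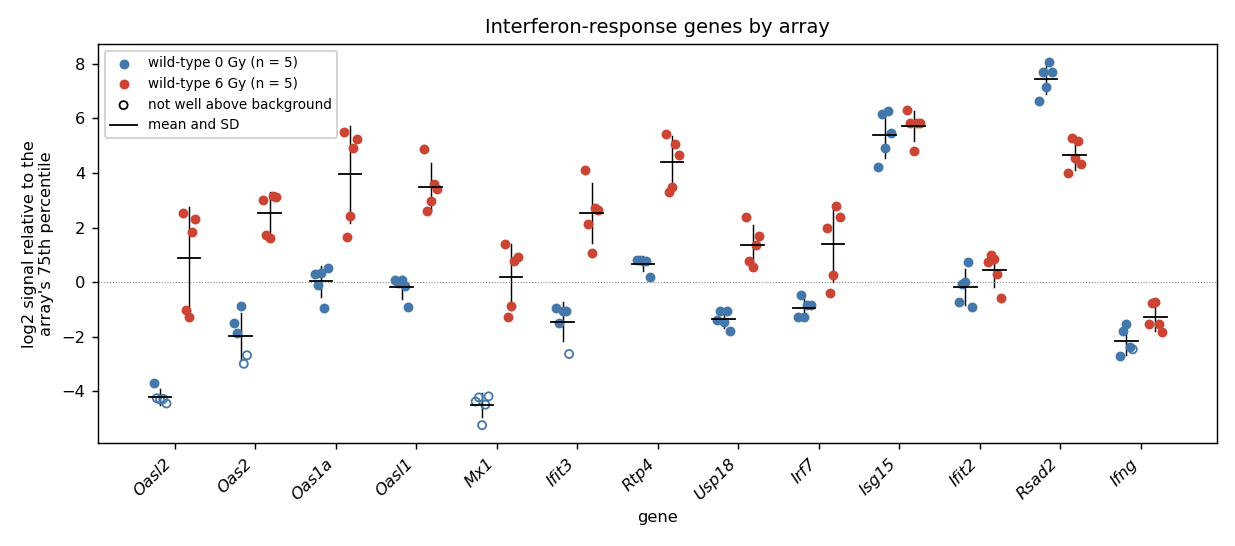
Log2 signal relative to the array's 75th percentile of 13 interferon-response genes on the 5 sham (blue) and 5 irradiated (red) arrays, open where not well above background, with mean and SD. Oasl2, Oas2, Mx1 and Ifit3 separate the groups by several log2 units, Isg15 and Ifit2 overlap, and Rsad2 is lower on all 5 irradiated arrays.

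Upstream members gave fewer calls. Among 19 tested sensors and transcription factors 3 rose and 2 fell, median 0.25, shares close to the 16.3% and 11.2% of all genes. Under median centring 0 were higher and 5 lower. Irf7, the amplifier of the response, rose by 2.34 ± 0.56, Dhx58, an RNA sensor related to RIG-I, by 1.72 ± 0.37 and Ifih1, the sensor MDA5, by 1.34 ± 0.36. The adaptor genes Mavs (-0.92 ± 0.23) and Tmem173, which encodes STING (-1.01 ± 0.26), fell. Of 8 ligand and receptor genes 0 rose and 1 fell, the kinase gene Jak1 (-0.81 ± 0.27). Ifng, type II interferon, was at -2.17 ± 0.50 and -1.29 ± 0.50 and did not pass (difference 0.88 ± 0.31, adjusted p = 0.0514). Of 11 GTPases induced by interferon-γ 2 rose, Gbp2 (1.57 ± 0.43) and Irgm2 (1.24 ± 0.37), and 0 fell, median 0.89, a share close to the 16.3% of all genes. Under median centring 0 were higher and 1 lower (median 0.11), and refits without 1 array called 1 (without sham replicate 1 or 5 or irradiated replicate 4) to 4 (without irradiated replicate 2) higher.

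The irradiated mice spread in this response. The mean of the antiviral effectors was 3.60, 2.09, 1.70, 3.02 and 3.04 on irradiated replicates 1 to 5, and 0.38 to 0.78 on sham arrays, with an SD of 0.77 in the irradiated and 0.16 in the sham group. Replicates 2 and 3 were thus the lowest in the irradiated group, and all 5 lay above sham. Oligoadenylate synthetases were again lowest there, with 1.29 and 1.42 on replicates 2 and 3 and 2.49 to 2.69 on the others. Among the arrays low in hepatocyte RNA 10 of the 19 effectors were higher and 1 lower.

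Promoters of these genes are shown because the response element is the letter sequence that the interferon-activated factors read. The RefSeq table (GRCm38.p6) gives 250 bases before and 50 after the gene start, and the core searched, on both strands, was a pair of GAAA with any 2 bases between them. A window with the core was found for 3.99% of the 27025 genes listed. It was present in 3 of 5 higher synthetase genes with a window, in 6 of 9 higher effectors, in 1 of 3 effectors that did not pass, and in Rsad2, which was lower. Below are the 200 bases before the gene start, 5′ to 3′ on the gene's strand, with the matches in capitals.
Oas1a (chr5:120907526-120907725, minus strand): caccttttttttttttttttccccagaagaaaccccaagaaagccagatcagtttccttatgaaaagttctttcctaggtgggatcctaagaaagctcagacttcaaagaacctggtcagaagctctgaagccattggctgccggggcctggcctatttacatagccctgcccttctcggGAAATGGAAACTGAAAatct
Ifit1 (chr19:34640689-34640888, plus strand): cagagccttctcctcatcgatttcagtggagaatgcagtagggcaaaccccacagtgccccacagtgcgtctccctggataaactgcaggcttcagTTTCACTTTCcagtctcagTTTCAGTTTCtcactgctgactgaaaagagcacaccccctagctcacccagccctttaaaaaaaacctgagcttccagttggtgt
Ifit3 (chr19:34583329-34583528, plus strand): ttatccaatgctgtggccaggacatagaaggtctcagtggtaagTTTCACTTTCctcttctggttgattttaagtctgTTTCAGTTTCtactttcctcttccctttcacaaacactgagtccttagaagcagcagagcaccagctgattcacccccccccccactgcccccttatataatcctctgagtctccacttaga
Ifit3b (chr19:34607757-34607956, plus strand): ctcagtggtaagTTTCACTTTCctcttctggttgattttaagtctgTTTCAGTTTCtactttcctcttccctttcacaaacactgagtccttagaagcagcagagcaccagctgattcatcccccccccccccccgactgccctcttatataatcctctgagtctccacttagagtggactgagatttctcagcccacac
Bst2 (chr8:71537473-71537672, minus strand): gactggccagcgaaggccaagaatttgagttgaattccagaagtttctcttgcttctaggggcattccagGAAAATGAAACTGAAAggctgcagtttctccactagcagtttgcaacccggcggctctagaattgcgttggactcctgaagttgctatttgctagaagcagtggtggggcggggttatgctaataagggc
Rsad2 (chr12:26456453-26456652, minus strand): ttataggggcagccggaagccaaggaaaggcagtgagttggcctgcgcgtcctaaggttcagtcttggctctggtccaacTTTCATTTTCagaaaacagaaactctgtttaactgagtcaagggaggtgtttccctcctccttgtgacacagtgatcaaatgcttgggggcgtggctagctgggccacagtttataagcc
In Oas1a and Bst2 a pair of matches overlaps, in Ifit1, Ifit3 and Ifit3b a pair stands apart, and Rsad2 has 1. A match is a string of letters and no proof of binding. For p53 a pair of CATG cores with any 6 bases between them was held by 0.833% of all genes in the table and by 1 of 8 higher arrest genes with a window, Cdkn1a. The Cdkn1a match is in the following 200 bases.
Cdkn1a (chr17:29090779-29090978, plus strand): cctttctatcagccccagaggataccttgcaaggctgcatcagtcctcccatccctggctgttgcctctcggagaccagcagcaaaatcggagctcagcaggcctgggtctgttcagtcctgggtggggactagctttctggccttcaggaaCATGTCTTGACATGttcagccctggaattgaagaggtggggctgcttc

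B cell genes were lower by a large margin. Of 21 tested B cell markers 16 fell and 1 rose, with a median of -2.08, and for all 16 the groups did not overlap, against 9.39% of all genes. In whole blood fewer cells of a type and less RNA per cell cannot be told apart. Vpreb3 encodes a chaperone of the immunoglobulin light chain in B cells (probe at mm9 chromosome 10, 75412326 to 75412385). Vpreb3 was at 1.31, 2.05, 1.63, 1.93 and 2.21 in sham replicates 1 to 5 and at -2.70, -2.62, -1.63, -2.94 and -1.89 in irradiated replicates 1 to 5. Irradiated levels lay near the dim end, with 2 of 5 arrays well above background, and the difference was -4.18 ± 0.29 (adjusted p = 6.47e-05).

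Tnfrsf13c, the BAFF receptor that keeps mature B cells alive, was at least 6.29-fold lower (limma adjusted p = 0.000208). Faim3, the Fc receptor for IgM now named Fcmr, fell (-3.40 ± 0.23), as did the antigen receptor chains Cd79a (-1.78 ± 0.23) and Cd79b (-2.52 ± 0.47). Cd79a was at 2.44, 2.08, 2.14, 1.84 and 2.30 in sham replicates 1 to 5 and at 0.73, 0.06, -0.07, 0.30 and 0.85 in irradiated replicates 1 to 5. Cd79a thus stayed well above background in all irradiated blood. Ms4a1, which encodes CD20, fell by more and with a larger error (-2.34 ± 0.66, adjusted p = 0.0232). Ebf1, a founder transcription factor of the B lineage, was at least 1.43-fold lower (limma adjusted p = 0.000289). The member that rose was Pax5, the other lineage factor, from a probe at -2.51 ± 0.54 in sham and -1.44 ± 0.48 in irradiated blood, near the dim end, and detected on 3 of 5 sham arrays (difference 1.07 ± 0.31, adjusted p = 0.0261). Among 4 tested plasma cell genes 1 fell, Prdm1, which was at least 1.14-fold lower (limma adjusted p = 0.00152), while Igj, the joining chain, did not pass (-0.03 ± 0.38).

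T cell markers were lower as well. Of 28 tested 20 fell and 0 rose, median -1.23. Dapl1, a gene of naive T cells, fell by the most. Dapl1 was at 2.37, 2.99, 2.71, 3.28 and 2.60 in sham replicates 1 to 5 and at -1.08, -0.18, -0.05, -0.63 and -0.98 in irradiated replicates 1 to 5. The groups did not overlap (difference -3.38 ± 0.27, adjusted p = 0.000169). The surface glycoprotein gene Thy1 fell (-2.34 ± 0.21), as did Cd8a (-1.95 ± 0.27), the kinase gene Lck (-1.85 ± 0.25), the receptor chains Cd3g (-1.42 ± 0.19) and Cd3d (-1.26 ± 0.19), and Ccr7, which guides cells to lymph nodes (-1.17 ± 0.25). Cd4 (-0.46 ± 0.27, adjusted p = 0.231) and Cd3e (-0.67 ± 0.29, adjusted p = 0.111) did not pass.

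Receptors that guide lymphocytes followed. Of 12 homing and chemokine receptor genes 7 fell and 0 rose, median -0.94. Ccr6, of B cells and memory T cells, fell (-2.19 ± 0.19), the lysophosphatidylserine receptor gene Gpr174 was at least 3.06-fold lower (limma adjusted p = 0.000382), and S1pr1, which lets lymphocytes leave lymph nodes, fell (-1.49 ± 0.30). Of 19 genes of antigen receptor signalling 5 fell and 0 rose, median -0.14, against 11.2% lower among all genes. Among those that fell was the signalling scaffold gene Malt1 (-1.53 ± 0.34). Plcg1 is a further one (-0.96 ± 0.24), but another of its probes rose, and the median of its probes gave 0.41. Rasgrp1 (-1.06 ± 0.32) and Nfatc2 (-1.09 ± 0.35) fell as well.

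Natural killer and cytotoxic genes gave no calls on this scale. Of 12 tested 0 rose and 0 fell, median 0.24. Under median centring 4 were lower. The median was -0.33 with scan day and -0.38 with slide as a fixed block over all 24 arrays. Ncr1, the activating receptor NKp46, differed by 0.52 ± 0.28 (adjusted p = 0.178). The list mean was 0.76 to 1.25 over sham arrays and 1.18, 1.68, 1.69, 0.94 and 0.43 on irradiated replicates 1 to 5, so the groups overlapped. Replicates 2 and 3, lowest for the antiviral effectors and the synthetases, were the highest here.

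**Figure D4:**
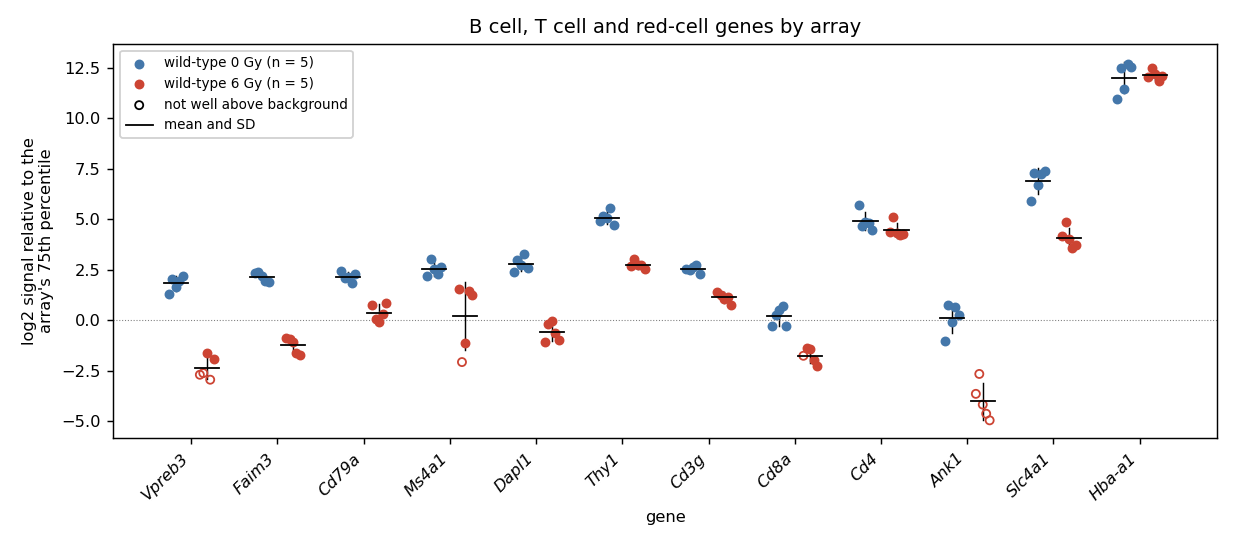
Log2 signal relative to the array's 75th percentile of 12 B cell, T cell and red-cell genes on the 5 sham (blue) and 5 irradiated (red) arrays, open where not well above background, with mean and SD. Vpreb3, Faim3, Dapl1, Ank1 and Slc4a1 are lower on all 5 irradiated arrays, whereas Cd4 and Hba-a1 overlap.

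MHC class II genes, which present antigen on B cells, dendritic cells and monocytes, were lower. Of 10 tested 7 fell and 0 rose, median -1.12. The peptide-loading regulators H2-Ob (-2.14 ± 0.20) and H2-Oa (-1.87 ± 0.28), of B cells, had the lowest adjusted p, and the invariant chain gene Cd74 (-1.42 ± 0.35) and the classical chains H2-Aa (-1.31 ± 0.45) and H2-Ab1 (-1.14 ± 0.35) fell. The class II median was -0.02 with scan day and -0.22 with slide as a fixed block over all 24 arrays, and 2 of 10 genes fell among the arrays low in hepatocyte RNA. Among 13 MHC class I and immunoproteasome genes 0 rose and 1 fell (H2-K1, -0.89 ± 0.20). B2m, the class I light chain, did not pass (0.34 ± 0.26).

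Red-cell genes were lower in part. Of 15 tested genes of the membrane skeleton 11 fell and 0 rose, median -2.52, the lowest median of the 50 lists. Ank1, an adaptor that ties the skeleton to the membrane, was at least 5.27-fold lower (limma adjusted p = 0.000483). Slc4a1 was at 5.90, 7.27, 6.67, 7.24 and 7.41 in sham replicates 1 to 5 and at 4.19, 4.87, 4.0, 3.56 and 3.74 in irradiated replicates 1 to 5. All irradiated arrays lay below all sham arrays for Slc4a1, the anion exchanger (-2.83 ± 0.34, adjusted p = 0.000605). Epb4.2, a membrane skeleton protein, fell as well (-3.16 ± 0.35). Of 9 genes of reticulocyte maturation 7 fell and 0 rose, median -1.71, led by the ubiquitin ligase genes Trim10 (-2.31 ± 0.32) and Ube2o (-2.41 ± 0.34). The 2 probes of Xpo7, a member of this list, were called in opposite directions (-1.31 and 1.03).

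Heme genes fell in part, 8 of 14 with 0 rising and a median of -0.90. Slc25a37, the mitochondrial iron importer, fell (-2.87 ± 0.29), and Blvrb, biliverdin reductase B, fell (-1.44 ± 0.26). Alas2, the first enzyme of erythroid heme synthesis, did not pass (-0.01 ± 0.34, adjusted p = 0.991). Among 14 globin and regulator genes 4 fell and 1 rose, median 0.23. The falls were carbonic anhydrase Car2 (-2.53 ± 0.36), Bpgm, which makes 2,3-bisphosphoglycerate (-2.17 ± 0.35), the α-globin chaperone gene Ahsp (-2.68 ± 0.51) and Prdx2 (-1.34 ± 0.39), and the rise was the erythropoietin receptor gene Epor (1.22 ± 0.41, adjusted p = 0.0475). The transcription factor gene Gata1 (0.94 ± 0.46, adjusted p = 0.146), Hba-a1 (0.11 ± 0.34) and Hbb-b1 (0.34 ± 0.35) did not pass, and globin RNA had been depleted. The mean of the membrane list was 0.84 to 2.43 over sham arrays and -0.65 to 0.56 over irradiated ones.

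Cell-division genes were lower in part. Among 13 tested mitotic genes 6 fell and 1 rose, with a median of -0.71 that was 0.11 with slide as a fixed block over all 24 arrays. Nusap1, a spindle protein, was at 1.98, 3.07, 2.41, 3.22 and 3.02 in sham and -0.87, -0.20, -0.53, -0.45 and -1.06 in irradiated replicates 1 to 5, with no overlap (difference -3.36 ± 0.28, adjusted p = 0.000202). Ube2c, of the anaphase-promoting complex (-2.49 ± 0.33), and Mki67, the proliferation marker (-1.07 ± 0.32), fell, while Ndc80, a kinetochore gene, rose (1.16 ± 0.37). In the replication list 9 of 17 fell and 2 rose, median -0.81. Mcm5, of the replicative helicase, fell (-1.41 ± 0.20) and so did Uhrf1, which maintains DNA methylation (-1.49 ± 0.26). Tyms, thymidylate synthase (2.33 ± 0.48), and Gins2 (1.49 ± 0.34) rose.

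Genes of DNA repair did not move as a group on this scale. In the list for repair of double-strand breaks, 14 genes tested, 3 rose and 3 fell around a median of -0.42. Among all genes 16.3% rose and 11.2% fell. Under median centring 0 of the 14 were higher and 9 lower. Bard1, the partner of Brca1 (1.54 ± 0.38), Xrcc4 (0.89 ± 0.26) and Nhej1 (0.52 ± 0.18, but -0.26 under median centring) rose, while Xrcc6, which encodes Ku70 (-0.78 ± 0.19), and H2afx (-0.72 ± 0.19) fell. Prkdc, the catalytic subunit of DNA-PK, was at least 1.02-fold lower (limma adjusted p = 0.0143). Of 10 genes of base excision repair 0 rose and 2 fell, Apex1 (-1.05 ± 0.29) and Ung (-0.98 ± 0.33), median -0.04. Refits without 1 array called 0 to 3 of them lower, and median centring called 5 lower.

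Parp1, the gene absent from the mutant mice of the series, was lower in irradiated wild-type blood (probe at mm9 chromosome 1, 182530341 to 182530639). Parp1 was at -0.35, -0.49, -0.59, -0.94 and -0.72 in sham replicates 1 to 5 and at -1.27, -2.33, -1.88, -1.51 and -2.06 in irradiated replicates 1 to 5. The groups did not overlap, 3 of 5 irradiated arrays were well above background, and the difference was -1.19 ± 0.24 (adjusted p = 0.00577). Parp1 was the 1 of 9 tested genes of the PARP family that passed, with 0 rising and a median of 0.12. With the spread shared over all 24 arrays the adjusted p was 0.0809, and on the 5 arrays low in hepatocyte RNA it was 0.0604.

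Most heat shock chaperones were lower. Of 18 tested 13 fell and 0 rose, median -0.95, and 11 did not overlap. Hsph1 was at 2.86, 4.13, 3.0, 3.36 and 2.62 in sham replicates 1 to 5 and at 0.61, 1.53, 1.14, 1.04 and 0.44 in irradiated replicates 1 to 5. Irradiated arrays all lay below sham arrays for Hsph1, the HSP110 chaperone (-2.24 ± 0.32, adjusted p = 0.00119). Chordc1, an HSP90 cofactor (-1.85 ± 0.22), Hsp90ab1 (-1.44 ± 0.25), Hsp90aa1 (-1.38 ± 0.26), Hspa8 (-1.04 ± 0.23), and the mitochondrial chaperone pair Hspd1 (-1.75 ± 0.41) and Hspe1 (-0.92 ± 0.28) fell. The heat shock element, searched on either strand as GAA, TTC and GAA with any 2 bases between neighbours, was held by 0.662% of genes in the promoter table, by 4 of 8 lower chaperone genes with a window and by 0 of 5 that did not pass. Hspd1 and Hspe1 share a promoter between them, shown here on the strand of Hspe1 with an overlapping pair of matches in capitals.
Hspe1 (chr1:55087948-55088147, plus strand): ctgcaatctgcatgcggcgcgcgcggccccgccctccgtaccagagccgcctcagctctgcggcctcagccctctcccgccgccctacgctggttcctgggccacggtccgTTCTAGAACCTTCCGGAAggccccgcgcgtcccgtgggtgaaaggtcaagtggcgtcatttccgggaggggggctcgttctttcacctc
Genes of the unfolded protein response in the endoplasmic reticulum did not follow on this scale, with 1 of 13 higher, Atf3 (1.12 ± 0.30), and 0 lower (median 0.00). Under median centring 0 of the 13 were higher and 6 lower. Hspa5, the main chaperone there, did not pass (-0.67 ± 0.36). Of 15 antioxidant genes 5 fell and 0 rose, median -0.20, among them Nqo1 (-1.86 ± 0.26), Gpx1, glutathione peroxidase of red cells (-1.93 ± 0.30), and Sod2, mitochondrial superoxide dismutase (-1.75 ± 0.29). Nfe2l2, their transcription factor Nrf2, did not pass (-0.01 ± 0.22).

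Some neutrophil genes were higher, in numbers that depended on the scaling. Of 16 surface genes of mature neutrophils 5 rose and 0 fell, median 0.96, against 16.3% higher among all genes. Ly6g was at -1.87, -2.91, -1.56, -2.64 and -1.83 in sham replicates 1 to 5 and at -0.04, -1.08, -1.02, -0.87 and -1.03 in irradiated replicates 1 to 5. All irradiated arrays lay above all sham arrays, replicate 1 the highest, and Ly6g, a neutrophil surface protein, rose by 1.35 ± 0.31 (adjusted p = 0.0104). Ceacam10 rose by 1.38 ± 0.31. Among 17 granule genes 4 rose and 0 fell, median 0.33, the protease genes Prtn3 (1.76 ± 0.26) and Ctsg (1.15 ± 0.37) and the alarmins S100a8 (1.22 ± 0.40) and S100a9 (1.24 ± 0.35). Under median centring 0 of the surface genes were called (median 0.17), and 1 granule gene was higher and 5 were lower (median -0.45). Refits without 1 array called 4 to 8 surface genes higher, 8 without sham replicate 3, and 1 to 5 granule genes, 1 without sham replicate 2 or irradiated replicate 1 or 3 and 2 without sham replicate 1 or 4.

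Of 14 Fc and phagocytic receptor genes 7 rose and 1 fell, median 1.10, against 16.3% and 11.2% of all genes. Under median centring 1 was higher and 2 were lower. Refits without 1 array called 3 (without irradiated replicate 3) to 9 (without irradiated replicate 2) higher, and 4 without irradiated replicate 1 or 4 or sham replicate 1, 2 or 4. Fcgr1, the high-affinity IgG receptor, rose by 2.02 ± 0.34, Fcer1g, the shared signalling chain, by 1.06 ± 0.20 and Fcgr4 by 1.64 ± 0.35, while Cd36, a scavenger receptor, fell (-1.12 ± 0.38). Of 12 complement and resident macrophage genes 2 rose, C1qb (1.83 ± 0.47) and C3ar1 (0.84 ± 0.24), and 0 fell. Their list mean was 2.13, 0.43, 2.26, -0.87 and 2.84 on sham replicates 1 to 5 and 3.56, 0.02, 2.0, 3.25 and 4.19 on irradiated replicates 1 to 5. Within the sham group it was lowest on replicates 2 and 4, where hepatocyte RNA was lowest too, whereas irradiated replicate 1 had 3.56 beside a hepatocyte mean of 0.95. A refit with the hepatocyte mean of each array as a covariate called 5 of the 12 higher and 0 lower, median 1.79. What part of these values is liver RNA was not tested.

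Monocyte genes did not rise. Of 16 tested 0 rose and 4 fell, median -0.09, against 11.2% lower among all genes. Irf8 was at 2.25, 2.31, 1.95, 1.61 and 2.09 in sham replicates 1 to 5 and at 0.41, -0.22, 0.55, -0.08 and -0.24 in irradiated replicates 1 to 5. No irradiated array reached the sham range of Irf8, the transcription factor of monocytes and dendritic cells (-1.96 ± 0.23, adjusted p = 0.000605). Spn (-1.31 ± 0.33), Cx3cr1 (-0.99 ± 0.26) and Nr4a1 (-0.77 ± 0.25) were the other falls, and Csf1r did not pass (0.39 ± 0.31). In a joint list of basophil and eosinophil genes 3 of 12 fell and 0 rose (median 0.20). The basophil protease gene Mcpt8 was at least 3.25-fold lower (limma adjusted p = 0.000907), Cd200r3 at least 1.37-fold lower (limma adjusted p = 0.0254), and Fcer1a, the IgE receptor α chain, fell (-2.53 ± 0.40).

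Platelet genes gave few calls, 2 of 26 higher and 0 lower, below the 16.3% of all genes, with a median of 0.61 that turned to -0.17 under median centring. They were Ptgs1, cyclo-oxygenase 1 (1.05 ± 0.27), and Selp, P-selectin (1.08 ± 0.33). Itga2b, the platelet integrin, differed by -0.04 ± 0.57. The platelet mean ran from 3.15 to 4.99 over sham and from 3.39 to 5.32 over irradiated arrays.

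Inflammatory lists gave shares of higher calls not far from the 16.3% of all genes. Of 13 tested NF-κB and cytokine genes 3 rose and 2 fell, median 0.15. Il1rn, the interleukin-1 receptor antagonist (1.63 ± 0.27), the anti-inflammatory cytokine gene Il10 (2.22 ± 0.47) and Relb (1.27 ± 0.30) rose. Of these 3 only 1 was detected on at least 4 sham arrays. The sizes of the other differences depend on the dim end of the scale. The chemokine gene Ccl3 was at least 2.33-fold lower (limma adjusted p = 0.000324), and Bcl3 fell (-0.74 ± 0.20). Of 15 Toll-like receptor and inflammasome genes 3 rose and 0 fell, median 0.77 (1 higher and 2 lower under median centring), Tlr4, the endotoxin receptor (1.38 ± 0.30), Nlrp3 (1.65 ± 0.43) and Casp4 (0.85 ± 0.27). Dusp1 was the 1 of 9 glucocorticoid-responsive genes that rose (1.44 ± 0.34), while Tsc22d3 did not pass (0.34 ± 0.28). Of 7 clock genes 1 fell, Arntl (-0.75 ± 0.25).

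Of 39 ribosomal protein genes 1 rose, Rps19 (0.71 ± 0.19, but -0.08 under median centring), and 2 fell, with a median of -0.36. These counts depended on the scale. Under median centring 37 of the 39 were lower, median -1.14, while normexp with quantile normalisation called 3 higher and 0 lower. Of 34 oxidative phosphorylation genes 0 rose and 6 fell, median -0.49, led by Atp5b (-1.25 ± 0.24) and Sdha (-1.17 ± 0.28). That share is 17.6%, against 11.2% lower among all genes, and refits without 1 array called 3 to 11 lower. Glycolysis genes gave 0 of 14 in either direction, median -0.25. Under median centring 20 oxidative phosphorylation and 8 glycolysis genes were lower, beside 6882 of all 15265 genes tested. Of the markers of other organs, Myl3 of heart muscle (2.04 ± 0.68), Tnnt3 (1.39 ± 0.37) and Tnni2 (0.83 ± 0.26) of fast skeletal muscle, Scgb1a1 of airway cells (1.64 ± 0.46) and Retn (1.29 ± 0.24) were higher. Under median centring 0 members of the heart, skeletal muscle, lung and adipocyte lists were higher. The part of such transcripts in the other results was not tested. Among the 5 arrays low in hepatocyte RNA 8 of 14 hepatocyte markers and 2 of 6 heart markers were higher, 1 of 19 interferon sensors and 0 of 11 GTPases were higher, and 0 of 9 PARP genes and 2 of 16 monocyte genes were lower. These arrays were chosen by the mean of the same 14 hepatocyte markers, so the hepatocyte count is no separate test. That mean was -0.99 and -0.69 on the sham arrays kept and 0.57 to 0.95 on the irradiated ones, so hepatocyte RNA was not made equal.

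Several of the largest changes lay outside the lists. Tmem35, now Tmem35a, a membrane protein best known from neurons, was at least 6.11-fold higher (limma adjusted p = 0.00108). Acsl1 was at 5.20, 5.77, 4.86, 5.83 and 5.42 in sham replicates 1 to 5 and at -0.36, 1.83, 1.93, 2.55 and 4.26 in irradiated replicates 1 to 5. Acsl1, a long-chain acyl-CoA synthetase, fell with no overlap (-3.37 ± 0.66, adjusted p = 0.0052). Ccdc151, a docking factor of ciliary dynein arms, differed by -4.12 ± 0.43 (adjusted p = 0.000359), a difference that was 0.61 with slide as a fixed block over all 24 arrays.

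**Figure D5:**
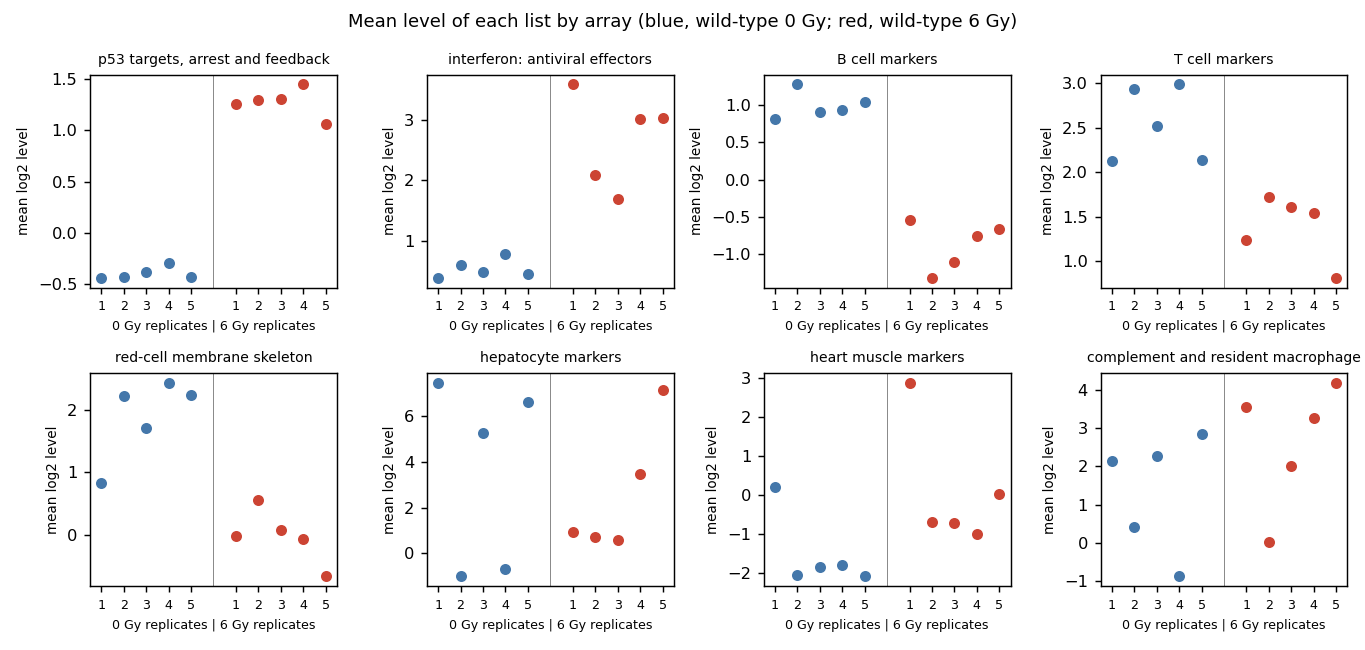
Mean log2 level of the tested members of 8 lists on each array, sham replicates 1 to 5 in blue and irradiated replicates 1 to 5 in red. The p53, interferon, B cell, T cell and red-cell membrane means separate the groups without overlap, whereas the hepatocyte mean runs from -0.99 to 7.47 within the sham group and the hepatocyte, heart and macrophage means overlap between groups.

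The 4 wild-type arrays at 8.8 Gy, scanned on the same day as those at 6 Gy, allow the levels at 6 Gy to be set beside a higher dose. One of them, replicate 2, was nearly equal to an array labelled as a Parp1 mutant at 6 Gy (replicate 1), their log2 differences having an SD of 0.167 across 10766 probes, against 0.262 for the next closest of 276 pairs and a median of 0.901. No gene was higher and 5 were lower at 8.8 Gy than at 6 Gy (0.0328% of genes, limma adjusted p under 0.05). Under median centring the balance turned, with 1527 higher and 74 lower. The refit without replicate 2 of 8.8 Gy called 0 lower, and each other refit without 1 array called 0 lower except the one without replicate 1 of 8.8 Gy, which called 19.

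Dapl1 was one of the 5. Its level was -2.46, -3.62, -2.56 and -2.46 on 8.8 Gy replicates 1 to 4, all below the 6 Gy arrays given above, a difference of -2.19 (95% interval -2.85 to -1.54). Parp3, a PARP family member that acts at DNA breaks, differed by -1.44 (95% interval -1.91 to -0.98) and Bbs12, a ciliary chaperonin-like gene, by -1.34 (95% interval -1.78 to -0.90). Of the remaining transcripts E030042N06Rik differed by -2.31 (95% interval -3.02 to -1.61) and LOC100046091 by -1.84 (95% interval -2.39 to -1.28). Leading genes of the 6 Gy response did not pass between the doses. The difference was -0.27 (95% interval -1.05 to 0.50) for Cdkn1a, 0.18 (95% interval -1.35 to 1.72) for Oasl2 and -0.12 (95% interval -1.03 to 0.79) for Vpreb3, intervals that still allow sizeable changes either way. Mean T cell marker levels were 0.20 to 1.35 at 8.8 Gy against 0.81 to 1.72 at 6 Gy, which overlap, and B cell means were -1.59 to -1.11 against -1.33 to -0.54. The red-cell membrane mean was 2.20, 1.33, 0.03 and 0.28 on 8.8 Gy replicates 1 to 4, replicates 1 and 2 lying above all 5 arrays at 6 Gy.

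Beyond the sham arrays no sample shares a scan day with them except 1 mutant array at 6 Gy (replicate 4), and fixed-block fits over all 24 arrays therefore rest on that array. With scan day as a fixed block 11 genes were higher and 7 lower, and with slide 0 were called (limma, unadjusted p under 0.05 for 1213 and 1714 genes). List medians under scan day were 1.05 for p53 arrest genes, 2.91 for antiviral effectors, -2.57 for B cells, -1.38 for T cells, -2.50 for the red-cell membrane and -0.90 for heat shock genes.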

How the data were processed

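Each array is 1 whole blood sample labelled with Cy3, with 5 arrays per group compared here and 4 at 8.8 Gy. Per the file headers, the deposited scanner files were made with Agilent Feature Extraction 11.5.1 and hold background-subtracted spot intensity values on mouse build mm9, and the authors' deposited series table holds log2 values of the same signals shifted by a constant per array. From 44397 spots, 43020 without control spots, the log2 processed signal minus the 75th percentile of each array was taken. Spots of a probe were averaged and the probe with the highest mean was kept per gene name, and genes were tested where 4 or more arrays of 1 group were well above background (15265 of 30199 names). Differences were tested with limma 3.58.1 in R 4.3.3 (lmFit and eBayes, two-sided, Benjamini-Hochberg over all genes tested, threshold 0.05), on these 10 arrays for irradiation and on all 14 wild-type arrays for dose. Exact permutation tests used SciPy 1.17.1. On simulated data of the same size 14% of genes changed by 1 and 71% of genes changed by 2 on the log2 scale were recovered, with 3 false calls among the unchanged genes. Far fewer genes were changed in the simulation than were called in the real comparison. The adjusted p depends on that share, so the recovery need not hold for these data. The simulated noise was independent between genes and held no shift shared by the arrays of a group. Its false calls therefore do not measure those that scan day or the dim end of the scale could give here. The number of arrays limits the precision. The labels do not say whether mice were irradiated together, so p-values measure the spread between these samples.

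The members and gene lists were chosen with earlier results of these data known. Genes named by rule were the 10 largest rises and falls without overlap that carry a gene symbol, the first member and the 2 called members with the lowest adjusted p of each list, Parp1, Trp53 and the largest called dose differences. Further examples, among them E030042N06Rik, LOC100046091 and Rsad2, were named after their values were seen. Promoter windows are from RefSeq. Some genes that the rule names are not reported here. Alternatives changed centring, background correction, filter, probe choice, blocks, the arrays included and the deposited table.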

Additional observations from a re-analysis of the deposited data

Results flagged for a closer look

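Among 418 groups of 4 or 5 arrays of the named genes, 22 had 1 array far from the others by Dixon's criterion, which chance gives in about 1 in 20 groups. Values are log2 levels, with the nearest other array of the group second. Sham replicate 1 was the highest for Oasl2 (-3.68, next -4.25), Mx2 (-2.23, next -3.26), the clock gene Dbp (3.71, next 1.98) and the heart myosin gene Myh6 (2.46, next -1.64). It was the lowest for Fcer1a (-0.91, next -0.45), Mcpt8 (-1.40, next -0.57), Mki67 (1.53, next 2.59) and Nlrp3 (-3.54, next -2.30). Sham replicate 2 was the highest for Prkdc (-1.81, next -2.29), and sham replicate 4 for Trp53 (-1.25, next -1.73). Sham replicate 3 was the lowest for Mx1 (-5.23, next -4.48) and the highest for Relb (-0.18, next -0.62). Sham replicate 5 was the lowest for Oasl1 (-0.91, next -0.13), Rtp4 (0.17, next 0.79) and Sesn2 (0.45, next 0.92). Irradiated replicate 1 was the lowest for H2-Oa (-1.88, next -0.86) and the highest for Ly6g (-0.04, next -0.87), and irradiated replicate 2 the highest for Cd4 (5.13, next 4.36). Irradiated replicate 5 was the lowest for Mdm2 (3.48, next 3.88), Cd27 (-0.27, next 1.71), Tyms (-1.63, next 0.22) and Nfatc2 (-0.95, next -0.17).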

How the results depend on the processing

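The counts of 2485 higher and 1713 lower genes became 851 and 6882 under median centring, 1055 and 1522 under normexp and quantile normalisation, 939 and 1170 among genes detected on all 10 arrays, 8002 and 1591 without a filter, and 1146 and 1194 in the deposited table, which lists fewer genes. With slide as a fixed block over all 24 arrays they were 0 and 0, and with scan day 11 and 7. With slide as a random block they were 2229 and 1331, and with the hepatocyte score as a covariate 3278 and 2460. Leaving out each array in turn gave 1534 to 3003 higher and 1129 to 1873 lower, both lowest without irradiated replicate 3. Between the doses 0 higher and 5 lower became 1527 and 74 under median centring and 0 and 0 over all 24 arrays, and 0 to 19 lower when arrays were left out. Shared replicate numbers did not pair the samples, as same-numbered samples had correlations of -0.19, 0.41, -0.01, -0.31 and 0.60 in their deviations from the group means. With the replicate block 2355 genes were higher and 1403 lower, and 0 and 0 between the doses. The cause of these shifts was not tested, except that the filters change which genes are tested. Log2 differences that turned sign follow by setting. On the 5 arrays low in hepatocyte RNA, sign turned for Bcl2 -0.04, Isg15 -0.56, Igj 0.10, Tsc22d3 -0.16, Dbp -0.03, Cox4i1 0.02, Alb 3.01, Hba-a1 -0.34 and Hbb-b1 -0.14. In the deposited normalized table, sign turned for Dbp -0.03. With the hepatocyte score as a covariate, sign turned for Alb 0.07. Under median centring, sign turned for Bcl2 -0.22, Isg15 -0.46, B2m -0.44, Ncr1 -0.26, Csf1r -0.39, Nfkbia -0.21, Tsc22d3 -0.44, Dbp -0.77, Rps19 -0.08, Pecam1 -0.27, Ifit2 -0.13, Hba-a1 -0.67, Hbb-b1 -0.44 and Nhej1 -0.26. With the median of a gene's probes, sign turned for Ifnar1 0.04 and Plcg1 0.41. Under normexp and quantile normalisation, sign turned for Igj 0.24, Syk 0.07, Itga2b 0.19, Nfe2l2 0.20, Ldha 0.09 and Cox4i1 0.21. With scan day as a fixed block, sign turned for Ncr1 -0.13, Syk 0.07, Itga2b 0.68, Rpl3 0.15, Alb 1.85, Myh6 -1.54, Myl3 -0.96, Ifng -0.34, H2-Ab1 0.19, Cd200r3 0.15 and Fcgr2b 0.95. With slide as a fixed block, sign turned for Ccdc151 0.61, Ddb2 0.10, Ncr1 -0.43, Syk 0.62, Alas2 0.74, Itga2b 1.36, Ung 0.04, Dbp -1.05, Rpl3 0.47, Myh6 -3.61, Myl3 -0.69, Ifng -0.30, Cd200r3 0.01 and Fcgr2b 0.64. With slide as a random block, sign turned for Igj 0.05, Alas2 0.07, Itga2b 0.06 and Dbp -0.14. When each array was left out in turn, sign turned within Alas2 -0.24 to 0.17, Dbp -0.33 to 0.39, Hba-a1 -0.16 to 0.28, Igj -0.35 to 0.17, Itga2b -0.39 to 0.35, Nfe2l2 -0.10 to 0.10 and Syk -0.28 to 0.04.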
